A study of Mus musculus with 48 samples.

Results

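The 10 genes examined here belong to cytotoxic lymphocytes and natural killer (NK) cells. They were Gzma, Gzmb, Prf1, Nkg7, Klrk1, Klrd1, Klrb1c, Ncr1, Il2rb and Xcl1, chosen by name from a single-cell table of 34586 genes, and all 10 were in it. The table came from a mouse model of rheumatoid arthritis, collagen-induced arthritis (CIA), in male DBA1/J mice aged 8 to 12 weeks. The 6 CIA mice, called S1, S2, S3, S5, S6 and S8, had received 100 µg of bovine type II collagen in complete Freund's adjuvant at the base of the tail and a booster in incomplete adjuvant at day 20, and the 4 healthy mice, called H3, H4, H6 and H7, had received PBS. Joint, lung, muscle, skin and spleen of the same animals gave 48 samples; joint had 3 healthy and 5 CIA mice and each other organ 4 and 6. The names of the libraries marked 2 experiments: H3 and the severe CIA mice S1, S2 and S3 formed one, called the first here, and H4, H6, H7 and the mild CIA mice S5, S6 and S8 the second, so that severity and experiment cannot be told apart among the CIA mice. The model was induced, so that healthy and CIA mice also differed in adjuvant.

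Cytotoxic lymphocytes kill a target cell by releasing granules. Perforin, encoded by Prf1, opens the target's membrane, and granzymes, the serine proteases encoded by Gzma and Gzmb, enter and start its death; Nkg7 encodes a membrane protein of these granules. NK cells and CD8 T cells share this machinery. They differ in how they are triggered: T cells use the T cell receptor with its CD3 chains, whereas NK cells weigh signals from germline receptors such as NKG2D (Klrk1), CD94 (Klrd1), NK1.1 (Klrb1c) and NKp46 (Ncr1). Il2rb encodes the beta chain of the receptors for IL-2 and IL-15, on which NK cells depend, and Xcl1 encodes a chemokine that attracts cross-presenting dendritic cells. Many strains other than C57BL/6 carry an NK1.1 variant, and the genes of the NK complex on chromosome 6 differ between strains. The reads of these DBA1/J mice had been aligned to the C57BL/6J reference, and whether that lowered the counts of Klrk1, Klrd1 or Klrb1c was not tested. Klrb1c and the Klra genes also have close copies in the genome, so their counts are uncertain.

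The genes lie on 7 chromosomes of GRCm38 (GENCODE M21). Klrb1c (chr6:128778485-128789215), Klrd1 (chr6:129591782-129598775) and Klrk1 (chr6:129610323-129623864) share the NK gene complex, and Nkg7 (chr7:43437073-43438249) and Ncr1 (chr7:4337724-4345164) share chromosome 7. Gzma (chr13:113093825-113100981), Gzmb (chr14:56258838-56262260), Prf1 (chr10:61297833-61304680), Il2rb (chr15:78479256-78495271) and Xcl1 (chr1:164931644-164935527) stand alone. RefSeq promoter entries (GRCm38.p6) matched 8 of the 10 genes. The RUNX core TGTGGT, read on both strands, occurred in the 250 bases upstream of the start in all 8, against 14.05% of 32851 promoter entries of the same length. The longer TGTGGTT, which contains that core, occurred in 5 of the 8 (Gzma, Gzmb, Klrk1, Ncr1 and Xcl1) and in 4.40% of all entries. The T-box motif GGTGTGA, searched on both strands, occurred in Nkg7 and Xcl1 and in 3.33% of all entries. RUNX3 and the T-box factors T-bet and Eomes are regulators of cytotoxic lymphocytes; a match of letters is a description and not a binding site.

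The promoters of Gzma, Prf1, Ncr1 and Xcl1 are shown because their genes carry the results that follow, a granzyme, perforin, an NK receptor and the chemokine. Each is the 250 bases upstream of the start, 5′ to 3′ on the gene's strand, with the RUNX core or its complement ACCACA and the T-box motif in capitals. Gzma is chr13:113100982-113101231 (minus strand), Prf1 chr10:61297586-61297835 (plus), Ncr1 chr7:4337474-4337723 (plus, 1 of 2 entries) and Xcl1 chr1:164935523-164935772 (minus).
Gzma: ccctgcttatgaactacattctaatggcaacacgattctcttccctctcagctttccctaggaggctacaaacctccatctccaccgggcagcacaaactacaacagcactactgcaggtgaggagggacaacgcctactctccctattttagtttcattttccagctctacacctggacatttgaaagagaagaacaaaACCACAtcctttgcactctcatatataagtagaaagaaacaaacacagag
Prf1: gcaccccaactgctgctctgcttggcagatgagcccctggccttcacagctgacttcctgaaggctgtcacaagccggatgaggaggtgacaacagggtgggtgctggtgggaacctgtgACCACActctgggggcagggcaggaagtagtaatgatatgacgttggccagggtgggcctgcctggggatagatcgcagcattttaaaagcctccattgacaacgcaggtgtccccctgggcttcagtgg
Ncr1: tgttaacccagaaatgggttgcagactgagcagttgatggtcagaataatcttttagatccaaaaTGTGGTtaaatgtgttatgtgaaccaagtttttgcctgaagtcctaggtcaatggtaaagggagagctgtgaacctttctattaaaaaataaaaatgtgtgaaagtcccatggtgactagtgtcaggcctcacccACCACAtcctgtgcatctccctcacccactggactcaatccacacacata
Xcl1: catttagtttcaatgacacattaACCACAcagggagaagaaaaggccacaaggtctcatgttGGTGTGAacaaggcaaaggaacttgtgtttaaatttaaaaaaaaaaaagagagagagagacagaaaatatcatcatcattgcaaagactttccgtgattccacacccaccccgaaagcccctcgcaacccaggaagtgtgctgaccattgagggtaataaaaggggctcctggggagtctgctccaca

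Where the transcripts of the 10 genes were found was examined first. In 12096 annotated cells of 13 cell types they had 2570 UMIs (unique molecules counted), 0.0241% of all UMIs, and 1067 cells, 8.82%, had at least 1. The cells were shallow, with 410 to 6239 UMIs each, and a library held between 17748 and 1645734 UMIs in annotated cells. Most values below are therefore small counts, and intervals and limits cover counting error only. Of 13164 distinct barcodes, 59 occurred in more than 1 library. The totals were 391 UMIs for Gzma, 85 for Gzmb, 39 for Prf1, 426 for Nkg7, 152 for Klrk1, 322 for Klrd1, 34 for Klrb1c, 93 for Ncr1, 198 for Il2rb and 830 for Xcl1. Between 57.5% (Nkg7) and 78.8% (Gzmb) of a gene's UMIs lay in cells labelled NK or T.

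Summed over the 10 genes, the 630 cells labelled NK held 23.2 UMIs per 10000 and the 1788 cells labelled T 4.75. Spleen gave 471 of the former and muscle 1283 of the latter, so organ and label are mixed in these pooled values. Dendritic cells followed with 4.30, monocytes with 2.22 and B cells with 1.67, and the epidermal basal III cells were lowest at 0.121. Cells labelled NK had the highest level of each gene but Gzmb, with a different runner-up from gene to gene. Gzma had 5.52 UMIs per 10000 in cells labelled NK and next 0.689 in dendritic cells, and Klrd1 3.42 and next 0.707 in monocytes. Nkg7 was less restricted, at 4.04 in cells labelled NK and 1.84 in dendritic cells. Gzmb was 0.31 in cells labelled NK and 0.36 in cells labelled T, with overlapping counting intervals. Muscle of S6 held 28 of the 54 Gzmb UMIs of cells labelled T. Xcl1 reached 2.36 in cells labelled T, and 356 of its 830 UMIs lay there, 160 of them in muscle of S6. In cells labelled B, which should lack these genes, the levels were 0.42 for Klrd1, 0.32 for Xcl1, 0.27 for Nkg7 and 0.23 for Gzma.

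**Figure D1:**
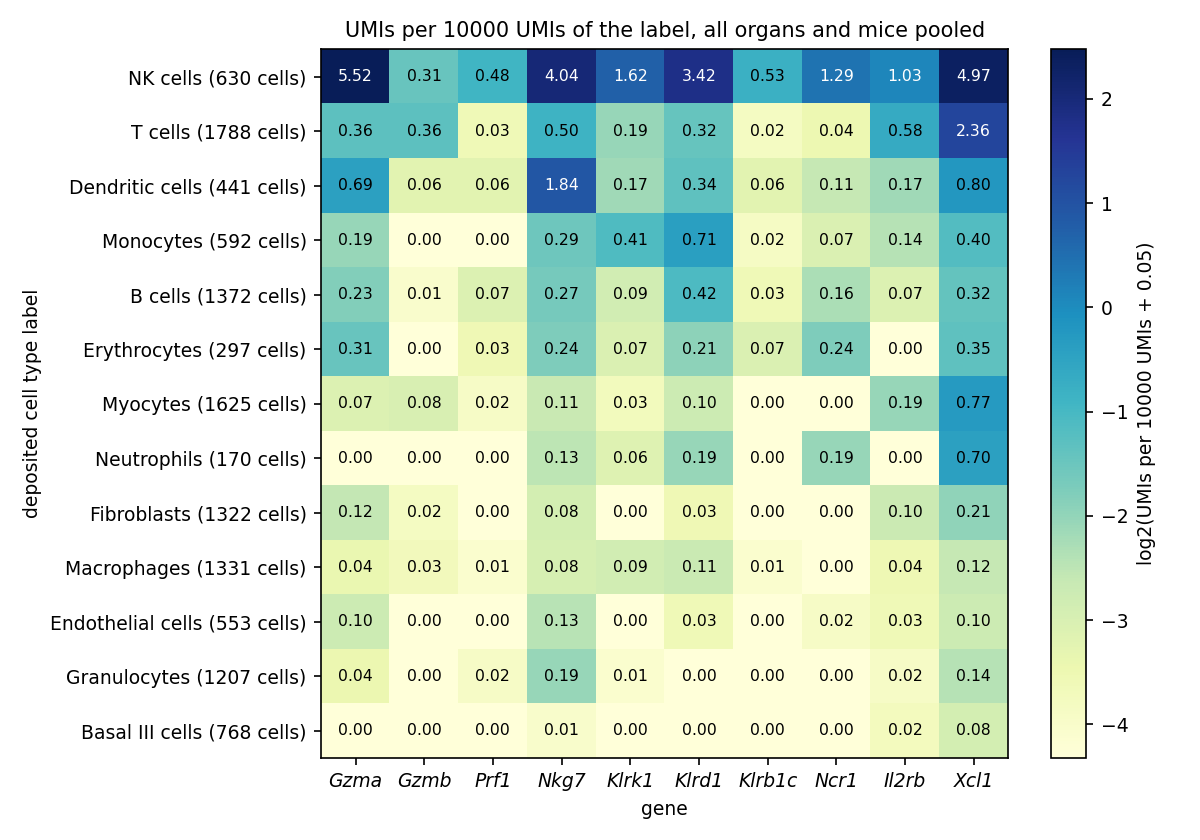
UMIs of each gene (columns) per 10000 UMIs of each deposited cell type label (rows, with the number of cells), pooled over organs and mice and ordered by the sum of the 10 genes; the colour is log2 of the value plus 0.05. Cells labelled NK hold the highest value of every gene except Gzmb, and the row of T cells stands out for Gzmb (0.36), Il2rb (0.58) and Xcl1 (2.36). Most cells labelled NK came from spleen and most labelled T from muscle, so organ and label are mixed.

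The label NK was then checked against markers, because the comparison of NK with T cells rests on it. In spleen the cells labelled NK held more UMIs of 8 NK markers (14.6 per 10000 against 1.99 in cells labelled T), with none of the 8 at 0. The markers were Klrk1, Il18rap, Gzma, Ncr1, Klrb1c, Eomes, Klre1 and Klra8. The study itself used Klrk1, Il18rap and Gzma to name NK cells, and Klrk1, Gzma, Ncr1 and Klrb1c belong to the 10 genes. This part of the check is therefore no independent support for the label. The cells labelled NK also held more UMIs of the T cell receptor complex (Cd3d, Cd3e, Cd3g, Trac, Trbc1 and Trbc2), 24.5 against 4.84 per 10000, which goes against the label. Of 471 spleen cells labelled NK, 300 (63.7%) had a UMI of that complex, against 55 of 235 cells labelled T (23.4%) and 177 of 1182 labelled B (15.0%). Median depths were 589, 793 and 587.5 UMIs per cell. In muscle the counts were 99 of 142 cells labelled NK (69.7%), 538 of 1283 labelled T (41.9%) and 24 of 185 labelled B (13.0%), at median depths of 540.5, 579 and 527 UMIs. After every cell was thinned to 400 UMIs, which left none out, the spleen shares were 51.8%, 14.5% and 10.1%, and the muscle shares 62.7%, 32.1% and 9.19%. The cells labelled NK thus include many that carry T cell receptor transcripts, and they are called cells labelled NK throughout.

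Spleen cells labelled NK were split into those with and without receptor transcripts. The pooled counting intervals of Gzma, Klrd1, Klrk1 and Xcl1 did not overlap, and those of the other 6 genes did. In the 171 cells with no UMI of the receptor complex, Gzma had 11.5 UMIs per 10000 (exact 95% interval 9.55 to 13.6), and in the 300 cells with one 4.23 (3.40 to 5.21). Klrd1 had 5.77 (4.45 to 7.37) without and 2.9 (2.22 to 3.73) with a receptor UMI. Klrk1 had 3.16 (2.20 to 4.39) and 1.28 (0.847 to 1.87), and Xcl1 8.39 (6.77 to 10.3) and 3.43 (2.68 to 4.31). These 4 pooled levels were higher in the cells without receptor transcripts, but the intervals pool mice and take each UMI as independent. In CIA spleen 1 cell labelled NK held 22 Xcl1 UMIs. The share of cells with a UMI differed less for Xcl1, at 18.1% without and 14.3% with a receptor UMI. For Gzma it was 21.1% and 9%, for Klrd1 24.0% and 15.3%, and for Klrk1 14.6% and 7%. Whether these differences hold from mouse to mouse was not tested. For Ncr1 the values were 1.62 (0.962 to 2.57) and 1.57 (1.08 to 2.20), and for Il2rb 0.722 (0.312 to 1.42) and 1.33 (0.885 to 1.93), whose intervals overlapped. The intervals of Nkg7, Prf1, Gzmb and Klrb1c also overlapped. Median depths were 574 UMIs without and 593.5 with a receptor UMI.

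NK and T cells were compared within mice that had at least 10 cells of each label. The labels were made from the expression of these cells, and Klrk1 and Gzma are among the markers the study named for NK cells, so these values are a description without a test. In spleen 5 mice qualified (H3, H7, S1, S2 and S5). Gzma was 2.45, 9.46, 2.33, 12.5 and 4.47 UMIs per 10000 in their cells labelled NK and 0.827, 1.31, 0.690, 0.477 and 0.320 in their cells labelled T. It was higher in cells labelled NK in all 5 mice, at 6.25 ± 4.55 against 0.725 ± 0.381 (SD, n = 5). Nkg7 (3.78 ± 1.36 against 0.775 ± 0.554) and Klrd1 (3.99 ± 1.38 against 0.669 ± 0.580) were also higher in all 5. Gzmb, Klrb1c, Ncr1 and Il2rb were higher in 5 of 5 mice, Klrk1 in 4 of 5, and Prf1 in 3, with both labels at 0 in the other 2. Xcl1 was higher in 4 of 5 mice; in H7 it was 2.03 in cells labelled NK and 6.55 in 11 cells labelled T. Gzmb and Il2rb had no UMI in the spleen cells labelled T of these mice.

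Muscle looked different. Only H6, H7 and S2 had 10 cells of each label, and their cells labelled NK held no UMI of Gzma, Gzmb, Prf1, Klrb1c or Ncr1. The sum of the 10 genes was 4.16 ± 4.74 UMIs per 10000 in cells labelled NK and 3.15 ± 0.503 in cells labelled T (SD, n = 3), and the receptor complex 41.6 ± 7.26 against 10.9 ± 6.10. Il2rb and Xcl1 were higher in cells labelled T in 2 of the 3 mice. Over all muscle samples, Gzmb had a UMI in 28 of 1283 cells labelled T (2.18%) and in 0 of 142 labelled NK, and Il2rb in 72 of 1283 (5.61%) and 6 of 142 (4.23%). The muscle of S8, whose 47 cells labelled NK exceeded its 9 labelled T, was the exception: 13 Gzma UMIs lay in 8 of those 47 cells, and they were all the Gzma UMIs of muscle cells labelled NK.

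**Figure D2:**
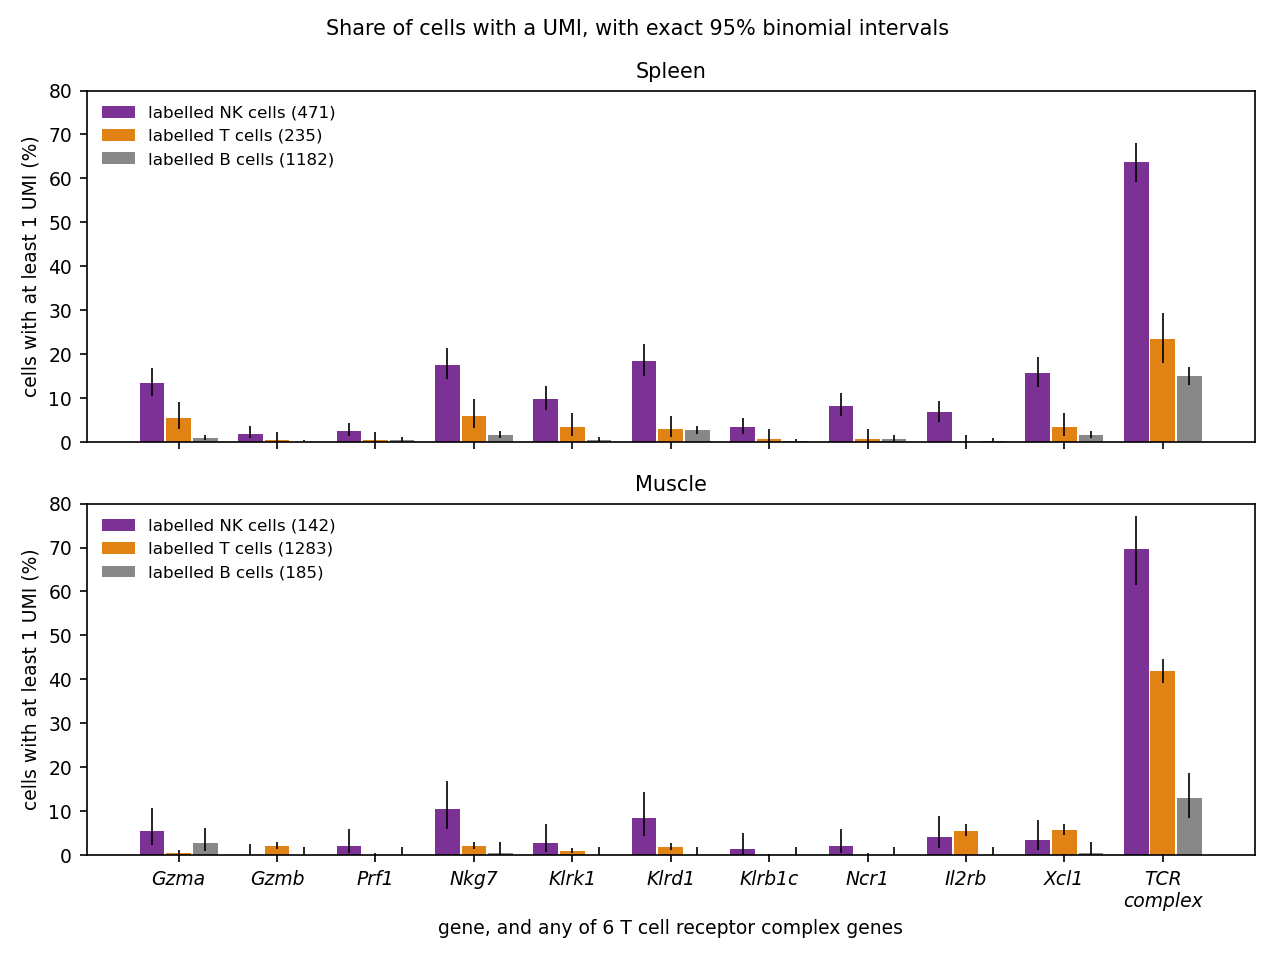
Percentage of cells with at least 1 UMI of each gene, or of any of 6 T cell receptor complex genes, among cells labelled NK, T and B in spleen (top) and muscle (bottom); bars are pooled over mice and lines are exact 95% binomial intervals. In spleen cells labelled NK are highest for every gene, in muscle cells labelled T are ahead for Gzmb, Il2rb and Xcl1, and in both organs cells labelled NK have the largest share with a receptor UMI.

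The shares of cells with any of the 10 genes kept their order at equal depth. In spleen, 203 of 471 cells labelled NK (43.1%) had a UMI of any of the 10 genes, 32 of 235 labelled T (13.6%) and 93 of 1182 labelled B (7.87%), and after thinning to 400 UMIs 37.8%, 8.94% and 6.01%. In muscle the shares were 19.0%, 14.8% and 3.78%, and 15.5%, 9.59% and 3.24% after thinning. Singly and before thinning, the share for Klrd1 was 18.5% in spleen cells labelled NK, 2.98% in those labelled T and 2.71% in those labelled B. After thinning it was 14.2%, 1.28% and 1.95%, so that the level in T cells was close to that of B cells. Gzma stood at 13.4%, 5.53% and 1.02% before and 10.6%, 2.55% and 0.761% after thinning. Muscle Klrk1 changed order, from 2.82% of cells labelled NK and 1.01% of those labelled T to 0% and 0.624%. Of the 630 cells labelled NK in all organs, 90 had UMIs of 1 of the 10 genes, 62 of 2, 45 of 3 and 40 of 4 or more, whereas among 1788 cells labelled T these numbers were 191, 51, 18 and 5.

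The effect of CIA was tested on UMIs summed per mouse. Spleen cells labelled NK came first, in 4 healthy and 5 CIA mice with 26 to 83 such cells each. Gzma had 5, 22, 6 and 28 UMIs in H3, H4, H6 and H7, and 7, 68, 27, 2 and 43 in S1, S2, S5, S6 and S8. Per 10000 UMIs this was 5.03 ± 3.13 in healthy (SD, n = 4) and 6.35 ± 5.34 in CIA mice (SD, n = 5); S2 (12.5) and S8 (11.5) lay above every healthy mouse and S1 (2.33) and S6 (0.906) below. Its log2 fold change was 0.26 ± 0.64 (SE; adjusted p = 0.999, edgeR's quasi-likelihood test), and the groups overlapped. Nkg7 went from 3.51 ± 2.16 to 4.54 ± 1.64 UMIs per 10000 with a log2 fold change of 0.21 ± 0.46 (adjusted p = 0.999). For Klrd1 the levels were 3.64 ± 1.55 and 3.71 ± 1.17, with a log2 fold change of -0.05 ± 0.38 (adjusted p = 0.999). Xcl1 was 4.30 ± 2.86 and 4.84 ± 2.89, with a log2 fold change of 0.07 ± 0.55 (adjusted p = 0.999). These 4 genes passed the filter on low counts. The other 6, tested without it, had 3 to 24 UMIs in healthy and 8 to 38 in CIA mice, and their smallest adjusted p was 0.661. Prf1 had 3 UMIs in healthy and 12 in CIA mice, Gzmb 3 and 8, Klrb1c 8 and 12, Il2rb 15 and 20, Ncr1 17 and 34, and Klrk1 24 and 38. None of the 10 was called by edgeR or DESeq2 and none had an unadjusted p under 0.05. Over all 15444 genes 0.0648% were called and 523 had an unadjusted p under 0.05. The median log2 fold change of the 10 genes was 0.14 and that of all genes tested 0.22.

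**Figure D3:**
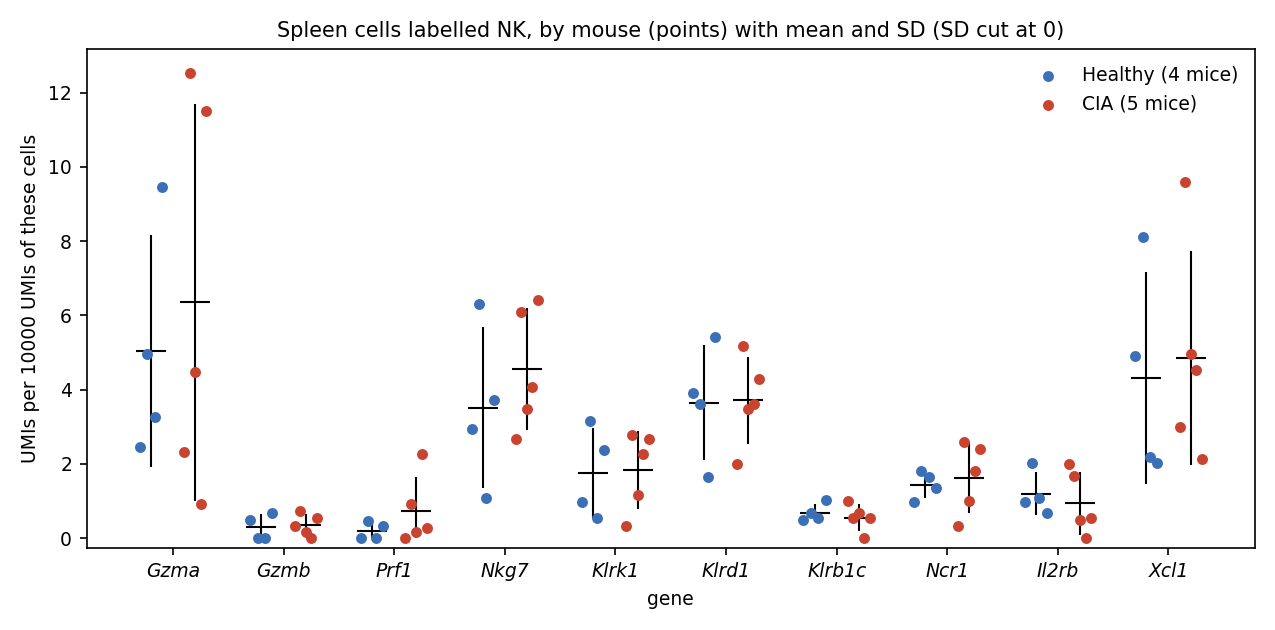
UMIs of each gene per 10000 UMIs of spleen cells labelled NK; each point is a mouse (4 healthy, 5 CIA), with the group's mean (short line) and SD (vertical line, stopped at 0). Healthy and CIA mice overlap for all 10 genes, and Gzma spreads most, from 0.906 in S6 to 12.5 in S2.

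The same cells differed in other transcripts: granulocyte markers (Camp, Ngp, S100a8 and S100a9) ranged from 7.88 to 13.8 UMIs per 10000 in healthy mice, with 1 of the 4 at 0, and from 24.1 to 112 in CIA mice, with none at 0. Their part in the values was not tested. The receptor complex ranged from 22.6 to 31.6 in healthy and from 19.0 to 36.9 in CIA mice.

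The proportion of cells labelled NK was compared over mice. In spleen they made up 18.9 ± 4.37% of annotated cells in healthy (SD, n = 4) and 14.3 ± 7.11% in CIA mice (SD, n = 6), a difference that was not larger than the spread (two-sided exact permutation test p = 0.248, adjusted over 4 tests p = 0.962). The 3 severe CIA mice had 10.1, 8.56 and 5.84% (S1, S2 and S3), below every healthy mouse, while the mild ones S5, S6 and S8 had 23.1, 17.4 and 20.8%; within the second experiment alone, CIA mice exceeded healthy ones by 2.55 percentage points. Of NK and T cells together the share was 77.8 ± 12.8% in healthy and 64.8 ± 29.9% in CIA mice (exact permutation p = 0.481, adjusted p = 0.962). In muscle the shares of all annotated cells were 3.86 ± 4.42% and 4.08 ± 7.10% (exact permutation p = 1, adjusted p = 1), and those of NK and T cells 9.88 ± 8.36% and 15.3 ± 33.7% (exact permutation p = 0.990, adjusted p = 1). The last value rests on S8, with 83.9% (47 of 56 cells); without it the difference, CIA minus healthy, was -8.31 percentage points. The smallest p that 4 and 6 mice allow was 0.00476.

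Because the receptor transcripts did not follow the labels, cells labelled NK and T were also summed together. In spleen (4 healthy and 6 CIA mice) the log2 fold changes of the 10 genes ran from -0.69 to 1.07 with a median of -0.19, against 0.37 over all 17844 genes. None was called by edgeR (smallest adjusted p = 0.713) or DESeq2, and 0 had an unadjusted p under 0.05. Of all genes 0.202% were called and 836 had an unadjusted p under 0.05. Gzma had 7, 22, 11 and 29 UMIs in the healthy mice and between 2 and 72 in the CIA mice. Il2rb had 15 UMIs in healthy and 21 in CIA mice, 0.857 ± 0.521 and 0.397 ± 0.263 per 10000 (SD, n = 4 and 6), and 3 CIA mice lay below every healthy one. Nkg7 (2.86 ± 1.59 and 2.89 ± 1.91), Klrd1 (2.79 ± 1.36 and 2.49 ± 1.80) and Xcl1 (3.32 ± 2.11 and 3.20 ± 1.73) differed by less than the spread between mice. Klrk1 had 26 UMIs in healthy and 44 in CIA mice, Ncr1 17 and 37, Klrb1c 8 and 15, Prf1 3 and 14, and Gzmb 3 and 10. In spleen cells labelled T alone (4 mice a group) none of the 9 genes with a UMI was called by either tool or had an unadjusted p under 0.05. Of 14622 genes 0.137% were called and 685 had an unadjusted p under 0.05. Gzma had 8 UMIs in healthy and 10 in CIA mice, Nkg7 4 and 17, Klrk1 2 and 5, and Klrd1 4 and 5. Xcl1 had 5 in healthy mice, all in H7, and 42 in CIA mice, 30 of them in S2. Gzmb, Prf1, Klrb1c and Ncr1 had none in healthy and 1 to 3 in CIA mice, and Il2rb had none at all.

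In muscle cells labelled NK or T (4 mice a group) all 10 log2 fold changes were positive, with a median of 1.49 against 0.31 over all genes. None passed in edgeR (smallest adjusted p = 0.689, with 0.097% of 19596 genes called) or DESeq2. An unadjusted p under 0.05 was reached by 3 of the 10 and by 997 of the 19596 genes. Gzma had 1, 0, 0 and 1 UMIs in H3, H4, H6 and H7 and 0, 3, 2 and 13 in S2, S3, S6 and S8. All CIA mice but S2 had more UMIs than any healthy mouse, yet per 10000 UMIs only S8 did, since H3 had 5876 UMIs in all. The log2 fold change was 2.49 ± 1.04 (unadjusted p = 0.0171 and adjusted p = 0.689 in edgeR) and rested on S8, without which it was 0.35. Prf1 had no UMI in the healthy mice and 1, 0, 2 and 5 in the CIA mice, a total at which no fold could be bounded (unadjusted p = 0.0212, adjusted p = 0.689). Nkg7 had 0, 1, 7 and 2 against 20, 3, 11 and 16 UMIs, with a log2 fold change of 1.45 ± 0.73 (unadjusted p = 0.0482, adjusted p = 0.689; 0.56 without S8 and 2.53 without H6). Klrd1 had 12 UMIs in healthy and 34 in CIA mice, Klrk1 4 and 15, and Ncr1 0 and 4, and Klrb1c had 2, both in S8. S8 was the highest CIA mouse for Nkg7, Klrd1, Klrk1, Prf1 and Ncr1 per 10000 UMIs.

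Gzmb, Il2rb and Xcl1 came from other mice. Gzmb had 6 UMIs in healthy muscle, all in H7, and 10, 2, 28 and 0 in S2, S3, S6 and S8. Il2rb had 0, 0, 5 and 7 UMIs in the healthy and 26, 1, 37 and 5 in the CIA mice; S2, S6 and S8 lay above all healthy mice per 10000 UMIs (0.226 ± 0.261 against 0.942 ± 0.719, SD, n = 4 each). Xcl1 had 0, 1, 27 and 31 against 39, 0, 160 and 3, so that S6 held 160 of the 202 UMIs of the CIA mice. In cells labelled T alone (H4, H6 and H7 against S2, S3 and S6) 9 genes had a UMI, Klrb1c being the exception. None was called by edgeR or DESeq2 or had an unadjusted p under 0.05. Of 19055 genes 0.105% were called and 738 had an unadjusted p under 0.05. Gzmb had 6 UMIs in healthy and 40 in CIA mice, Il2rb 11 and 64, Nkg7 6 and 29, Klrd1 6 and 22, and Klrk1 4 and 10. Gzma had 1 and 5, Prf1 0 and 3, and Ncr1 0 and 1. Xcl1 there was 1.48 ± 0.852 against 2.76 ± 3.98 per 10000 (SD, n = 3 each). Of muscle cells labelled T, 25.1% in healthy and 48.2% in CIA mice had a receptor complex UMI. In NK and T cells together, erythroid markers ranged from 35.7 to 179 UMIs per 10000 in healthy and from 1.10 to 22.0 in CIA mice, and the part of either in the values was not tested. Muscle cells labelled NK alone were not compared, as only 2 mice a group reached the minimum of 5 such cells.

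**Figure D4:**
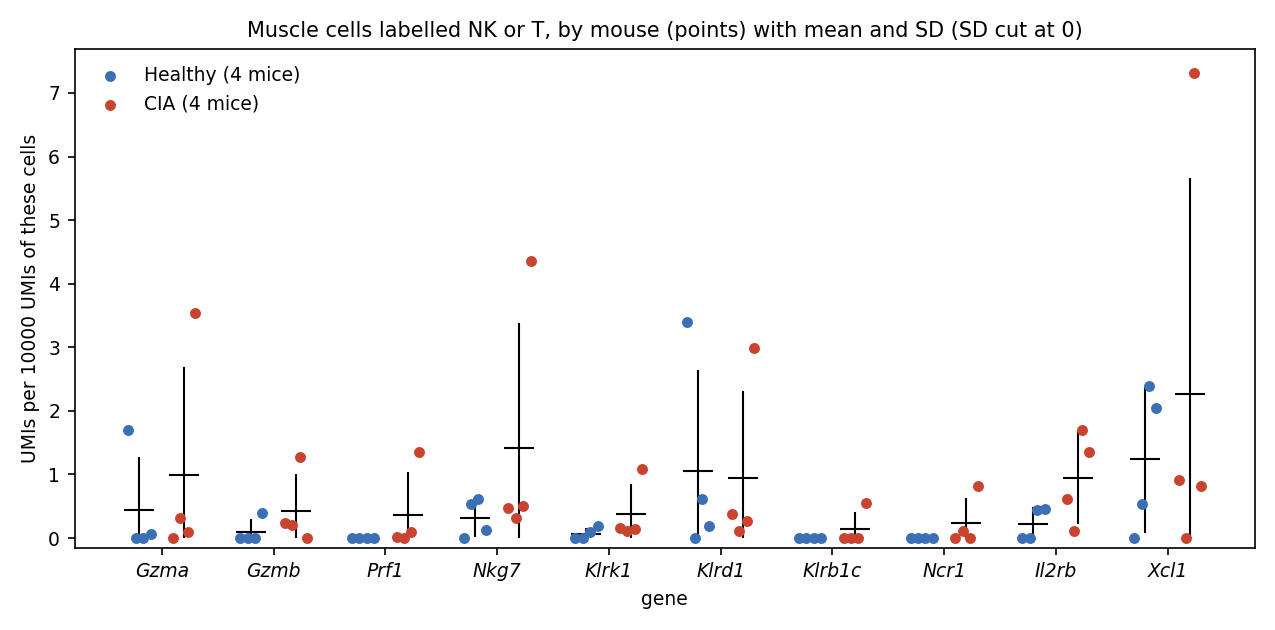
UMIs of each gene per 10000 UMIs of muscle cells labelled NK or T; each point is a mouse (4 healthy, 4 CIA), with the group's mean (short line) and SD (vertical line, stopped at 0). One CIA mouse at a time carries the high values, S8 for Gzma, Prf1, Nkg7, Klrk1 and Ncr1 and S6 for Gzmb and Xcl1.

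The effect of CIA on these genes in muscle was set against that in spleen by a test of the difference itself, over NK and T cells together. The difference in log2 fold change was positive for all 10 genes, with a median of 1.83 against 0.01 over 21612 genes. None was called in edgeR (0.0602% of all genes were). Over all genes 1028 had an unadjusted p under 0.05, and of the 10 only 1 did. That was Il2rb, with an unadjusted p of 0.0351 and a difference of 2.08 ± 0.99 (adjusted p = 0.989). The difference was 2.71 ± 1.94 for Gzma, 1.58 ± 1.119 for Nkg7, 1.29 ± 1.36 for Klrk1, 1.03 ± 1.41 for Gzmb, 0.70 ± 1.19 for Klrd1 and 0.63 ± 1.07 for Xcl1. Prf1, Klrb1c and Ncr1 had no UMI in healthy muscle, so that their fitted differences are no bound. Muscle and spleen came from the same animals, but the fit took the samples as independent, so these SEs and p-values leave that pairing out. The sums of S8 and S6 that carry the muscle values enter all of these differences.

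Sums over whole organs came last, in which a change in the number of cells of a type and a change in RNA per cell cannot be told apart. Among the 13 tests, lung Gzma was the only member called. Over all annotated lung cells Gzma had no UMI in H3, H4, H6 and H7, and 14, 3, 1, 9, 2 and 0 in S1, S2, S3, S5, S6 and S8. Thus 5 of 6 CIA mice lay above all healthy mice and S8 did not. Against a floor of 3 UMIs over the 4 healthy libraries, Gzma was at least 7.98-fold higher in CIA, whose count was taken as exact. That was 29 of 294923 UMIs against 0 of 243365 (adjusted p = 0.00533 in edgeR's quasi-likelihood test without a filter on low counts). Called genes made up 0.519% of 17915. The 29 UMIs lay in 12 cells, and 1 cell of S5 held 9. Of the 29, 24 lay in 7 of 35 cells labelled T, while 43 healthy lung cells labelled T held none. The call was lost without S1 (adjusted p = 0.0698, with a bound of 6.30-fold) and without H4 (adjusted p = 0.106). It was also lost when the cells without a cell type were added (adjusted p = 0.223), which held 3 Gzma UMIs in healthy and 3 in CIA mice, and with DESeq2 (adjusted p = 0.0819). In the experiment of S5, S6 and S8 alone it was not reached (adjusted p = 0.219).

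In lung cells labelled T (3 healthy and 5 CIA mice with 5 to 25 such cells) Gzma had 0, 0 and 0 UMIs in H3, H4 and H6 and 12, 2, 1, 9 and 0 in S1, S2, S3, S5 and S6. With the CIA count taken as exact, that was at least 7.92-fold higher against the floor of 3 UMIs (at least 5.22-fold without S1). The adjusted p in edgeR was 0.0734, and 0.0251% of 7953 genes were called. Of the 5 genes with a UMI, 2 had an unadjusted p under 0.05, as did 210 of the 7953 genes. DESeq2 called none. Nkg7 had 0 UMIs in the healthy mice and 1, 2, 0, 1 and 1 in the CIA mice (adjusted p = 0.507). The same cells of CIA mice held 0 to 29.7 UMIs per 10000 of the 8 NK markers, Gzma included, with 4 of the 8 at 0, and healthy ones 0 to 1.46 with 7 at 0. The receptor complex ranged from 14.6 to 23.7 in healthy and from 4.51 to 14.9 in CIA mice. Over the whole lung, granulocyte markers ranged from 3.36 to 5.45 per 10000 in healthy and from 5.63 to 168 in CIA mice; their part in the result was not tested. In these T cells Xcl1 had 3 and 8 UMIs, Il2rb 2 and 1, and Klrd1 0 and 1. Over the whole lung Xcl1 had 4 UMIs in healthy and 14 in CIA mice, Nkg7 2 and 8, Klrk1 3 and 1, and Il2rb 3 and 2. Gzmb, Klrd1, Klrb1c and Prf1 had 0 or 1 a group, and Ncr1 had none.

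**Figure D5:**
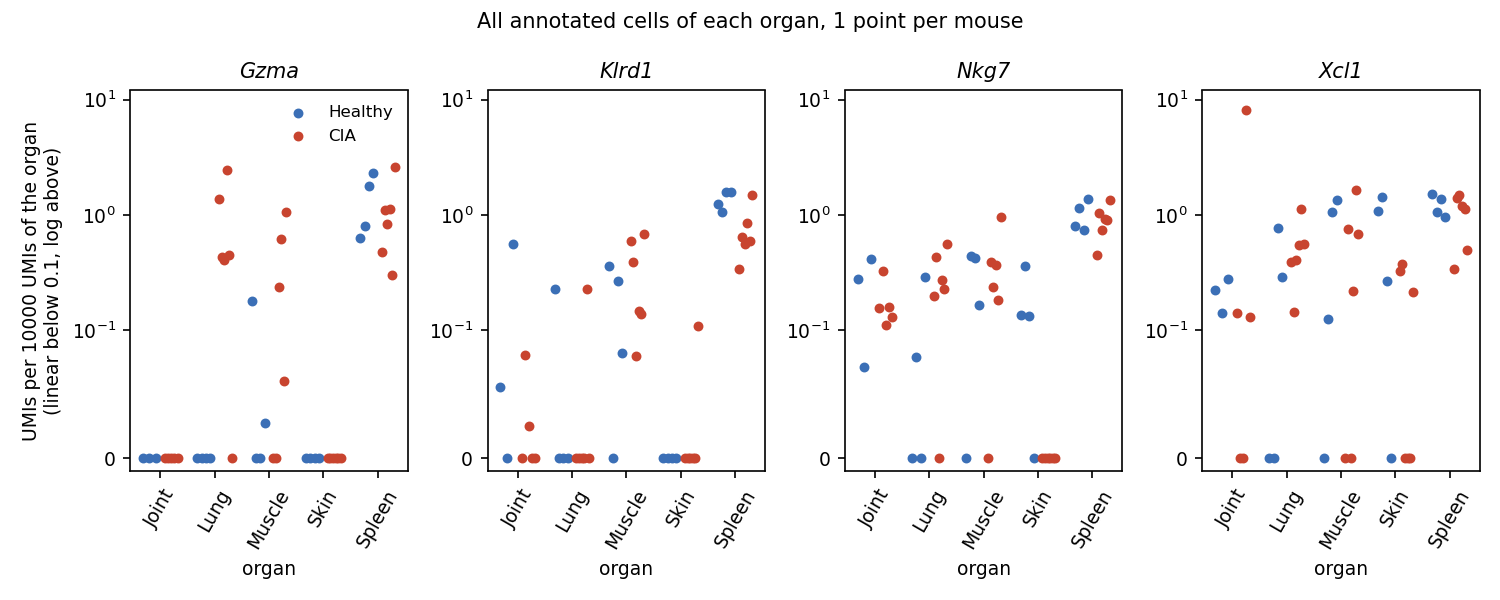
UMIs of Gzma, Klrd1, Nkg7 and Xcl1 per 10000 UMIs of all annotated cells of an organ, 1 point per mouse (blue healthy, red CIA); the axis is linear below 0.1 and logarithmic above. Gzma is at 0 in all joint and skin samples and in all healthy lungs, spleen Klrd1 has 5 of its 6 red points under the lowest blue one, and Xcl1 of the joint has 1 mouse, S6, at 8.12.

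In whole muscle (4 healthy and 6 CIA mice) none of the 10 genes was called by edgeR or DESeq2, against 0.159% of 25197 genes. An unadjusted p under 0.05 was reached by 3 of the 10 and by 1177 of the 25197 genes. Gzma had 1, 0, 0 and 1 UMIs in the healthy and 0, 0, 3, 25, 10 and 20 in the CIA mice, with a log2 fold change of 3.53 ± 1.02 (unadjusted p = 0.00050, adjusted p = 0.152). Per 10000 UMIs, S3 (0.239), S5 (0.613) and S8 (1.06) lay above all healthy mice and S6 (0.0608) below H3 (0.179). In the second experiment alone Gzma was called (log2 fold change 4.96, adjusted p = 0.0309 in edgeR). The share of all genes called in that alternative is not given here. The UMIs were spread over cell types. Those of S5 lay in 9 cells labelled fibroblasts (17 UMIs), 6 labelled endothelial (6) and macrophages (2), those of S8 in cells labelled NK (13) and B (6), and those of S6 in 8 labelled myocytes (8) and in T cells (2). Of the 9 cells labelled fibroblasts, 8 had a fibroblast marker UMI and 2 a receptor complex UMI, at a median depth of 2607 UMIs. In whole muscle Prf1 had 0 UMIs in healthy and 10 in CIA mice (unadjusted p = 0.0367, adjusted p = 0.757), and Ncr1 0 and 8 (unadjusted p = 0.0357, adjusted p = 0.757). Il2rb had 13 UMIs in healthy and 112 in CIA mice, Gzmb 6 and 52, Nkg7 24 and 86, Klrd1 12 and 65, Klrk1 4 and 24, and Klrb1c 1 and 2. Xcl1 had 79 and 332 UMIs, and S6 held 271 of the latter, 90 of them in 70 of its 1492 cells labelled myocytes. Of these 70 cells 59 had a B cell marker UMI, but the share in its other cells labelled myocytes was not counted. Such UMIs were common in this organ, with 1 or more in 41.9% of muscle cells labelled T.

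In whole spleen none of the 10 was called by edgeR or DESeq2, against 0.474% of 23012 genes. An unadjusted p under 0.05 was reached by 1 of the 10 and by 1399 of the 23012 genes. Of the 10 log2 fold changes 8 were negative (median -0.31, against 0.18 over all genes). Klrd1 was 1.26, 1.07, 1.57 and 1.57 UMIs per 10000 in the healthy mice, and from 0.341 to 1.49 with a median of 0.624 in the CIA mice. Of the 6 CIA mice, 5, all but S8, lay below all healthy mice. The log2 fold change was -0.82 ± 0.34 (unadjusted p = 0.0314, adjusted p = 0.702). Ncr1 was 0.399 ± 0.130 and 0.258 ± 0.152, with 4 CIA mice below all healthy ones, and Klrk1 0.490 ± 0.123 and 0.367 ± 0.213, with 3 below (SD, n = 4 and 6). In spleen cells labelled NK the log2 fold change of Klrd1 was -0.05. Gzma was 1.39 ± 0.808 and 1.07 ± 0.811, Nkg7 1.01 ± 0.296 and 0.899 ± 0.298, Xcl1 1.23 ± 0.261 and 1.01 ± 0.478, and Il2rb 0.249 ± 0.0967 and 0.141 ± 0.0932, all with overlapping groups. Klrb1c had 11 UMIs in healthy and 19 in CIA mice, Prf1 9 and 18, and Gzmb 3 and 13. Other transcripts moved in the same sums. Receptor complex UMIs were 6.64 to 9.52 per 10000 in healthy and 3.77 to 6.78 in CIA mice, macrophage and monocyte markers 9.80 to 15.8 (2 of 5 at 0) and 20.9 to 58.6 (none at 0), and granulocyte markers 33.9 to 222 and 197 to 1309, with none of 4 at 0. Their part in the values was not tested.

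The joint, the inflamed organ of the model, held little. Gzma and Klrb1c had no UMI in any joint sample, which in 2078593 UMIs of CIA mice allows Gzma a level of up to 0.0144 per 10000. None of the 8 genes with a UMI was called by edgeR or DESeq2, against 0.129% of 24079 genes. An unadjusted p under 0.05 was reached by 1465 of the 24079 genes and by 1 of the 8. Xcl1 had 4, 2 and 2 UMIs in H3, H4 and H7 and 9, 0, 0, 51 and 1 in S1, S3, S5, S6 and S8. It had a log2 fold change of 2.46 ± 0.78 (unadjusted p = 0.00164, adjusted p = 0.246), which rests on S6: there 1 cell labelled NK held 20 UMIs and 5 cells labelled T held 30. Without S6 the log2 fold change was -1.32. Nkg7 had 9 UMIs in healthy and 29 in CIA joints, 0.256 ± 0.174 and 0.176 ± 0.0850 per 10000 (SD, n = 3 and 5). Il2rb had 2 and 9 UMIs, Klrd1 5 and 4, Klrk1 2 and 5, Gzmb 0 and 4, Ncr1 1 and 1, and Prf1 0 and 1. In joint cells labelled T (6 to 58 cells a mouse) 7 genes had a UMI and none was called by either tool, against 0.00717% of 13949 genes called. An unadjusted p under 0.05 was reached by 1 of the 7 and by 394 of the 13949 genes. Klrd1 there had 2 UMIs in healthy and 0 in CIA mice (unadjusted p = 0.0328, adjusted p = 0.635), and Xcl1 had 5 and 30. Nkg7 had 2 and 9, Il2rb 2 and 5, Gzmb 0 and 4, Klrk1 1 and 2, and Ncr1 1 and 1.

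Skin was sparser still, with 6 genes that had a UMI. None was called by edgeR or DESeq2, against 0.0901% of 21082 genes. An unadjusted p under 0.05 was reached by 3 of the 6 and by 1165 of the 21082 genes. Nkg7 had 1, 2, 2 and 0 UMIs in the healthy and 0 in every CIA mouse (unadjusted p = 0.0038, adjusted p = 0.693 in edgeR). Klrk1 had 2, 1, 1 and 0 against 0 (adjusted p = 0.693). Against a floor of 3 UMIs they were 3.13-fold and 2.5-fold lower in CIA. With 5 and 4 healthy UMIs, taken as exact, neither fold is a bound. Of these UMIs, 4 of each gene lay in cells labelled T, which were 19 of 376 healthy and 12 of 791 CIA skin cells. The part of that difference was not tested. Xcl1 had 8, 8, 4 and 0 against 4, 9, 0, 0, 0 and 2 UMIs, with a log2 fold change of -1.44 ± 0.61 (unadjusted p = 0.0181, adjusted p = 0.693). Gzmb had 4 UMIs in healthy and 1 in CIA skin, Il2rb 1 and 2, and Klrd1 0 and 1. Per cell type the 31 skin cells labelled T held 14.1 UMIs of the 10 genes per 10000. The level was 9.49 in 78 lung, 4.64 in 1283 muscle, 4.62 in 235 spleen and 3.38 in 161 joint cells labelled T. Few cells carried the highest values. Of the 28 skin UMIs, Xcl1 had 7 in 2 healthy and 9 in 3 CIA cells, and of the 44 lung UMIs, Gzma had 24 in 7 CIA cells.

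Other genes of cytotoxic cells were counted by lists. The levels given pool organs and mice. Most cells labelled NK came from spleen and most labelled T from muscle, so label and organ cannot be told apart in them. Of 24 further NK receptors in the table, Klre1 had 1.86 UMIs per 10000 in cells labelled NK and 0.0596 in cells labelled T, Klra3 1.70 and 0.113, and Cd160 1.31 and 0.106. Of 9 adaptors, Hcst, the partner of NKG2D, had 4.92 and 1.54, the T cell kinase gene Lck 3.30 and 0.695, and Tyrobp 2.75 and 1.60. Of 13 effector genes, the granule proteoglycan gene Srgn was lower in cells labelled NK (10.7 against 24.9), as was Lamp1 (0.884 against 1.28), while Ctsw had 0.764 and 0.192. Of 9 transcription factors, Id2 had 6.4 and 5.24, Eomes 0.836 and 0.305, and Zeb2 0.716 and 0.808. Of 17 cytokines and receptors, the chemokine Ccl5 had 19.4 and 3.48, Ccl4 3.25 and 2.57, and Il2rg 1.58 and 1.09. The 5 NKG2D ligands had 71 UMIs in all annotated cells, 1 of them in cells labelled NK, and Ulbp1 held 39. No gene of the 6 lists was called by edgeR, in either direction, in 820 tests of a gene in a comparison, of which 99 had passed the filter. Over all genes 0.00717% to 0.519% were called, depending on the comparison, so the lack of calls is no result about the lists. An unadjusted p under 0.05 was found in 79 of the 820. Over all genes it was found in from 210 of 7953 (lung cells labelled T) to 1123 of 17915 (whole lung).

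The genes whose levels followed the sum of the 10 most closely were sought over 35 pairs of organ and label with at least 20 cells, among 9856 genes. They were Trbc2 (Pearson's r = 0.80), Trbc1 (0.80), Lat (0.80), Cd3g (0.77) and Gm22973 (0.77), a description, since the pairs share libraries and depth. Trbc1, Trbc2 and Cd3g encode chains of the T cell receptor complex, and Lat its signalling adaptor. Trbc2 had 8.53 UMIs per 10000 in cells labelled NK and 4.03 in cells labelled T, pooled over organs. Among the 10 themselves, the correlation with the sum of the other 9 was 0.73 for Xcl1, 0.70 for Il2rb, 0.67 for Nkg7, 0.66 for Klrk1, 0.55 for Klrd1, 0.52 for Gzma and 0.28 for Klrb1c.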

How the data were processed

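Single-cell RNA-seq had been run with Seq-Well on cryopreserved, thawed and digested tissue, with red cell lysis of all spleens and of 6 muscles. Per the study's methods the authors used bcl2fastq 2.19.1, Picard 2.9.0, STAR 2.5.3 (GRCm38) and Drop-seq tools 1.12 and kept cells with at least 10000 reads, 400 transcripts and 200 genes and under 20% mitochondrial reads. The authors deposited UMI counts per gene and cell, not normalized, and cell type labels that they made from denoised expression, a reference and marker genes. Their methods also removed cells of over 6000 transcripts as likely duplicates; the deposited annotated cells reach 6239 UMIs, and cells of at most 6000 were an alternative. No doublet caller was run.

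The members and lists were chosen with earlier results of these data known. Samples were grouped by organ and disease from the labels, and columns were mapped to samples by name; 1144 of 13240 cells had no cell type and entered only as an alternative. Counts were summed per mouse and tested in edgeR 4.0.16 (R 4.3.3; TMM, filterByExpr, quasi-likelihood, Benjamini-Hochberg, threshold 0.05). Genes removed by the filter were read from the same fit without it. Mice needed at least 10 cells of a label (5 for joint, lung and spleen T cells). Labels do not say that samples of a group are separate litters, so p-values measure the spread between these mice. Shares used a two-sided exact permutation test over mice (scipy 1.17.1, Python 3.11.15). Cells were thinned to 400 UMIs for shares; intervals are exact Clopper-Pearson at 95%. Likeness used log2(CPM + 10) over pairs with 20 cells. A floor was 3 UMIs over a group. A fold against it took the other group's count as exact and leaves out its counting error. Fits with the filter were tested on simulated data, in which only genes with a mean of at least 5 UMIs were changed. The fit without the filter, which gave the values of members with low counts, was not tested in this way. All 10 members are named in each comparison in which they had a UMI; of the lists, at most 3 genes with the most UMIs in cells labelled NK are named, and 5 genes most like the sum. The motifs and single cells were chosen after values were seen. Mouse numbers shared by healthy and CIA mice (3 and 6) named different animals and did not pair them. Alternatives were DESeq2 1.42.0, other scalings, no filter, other cell minima, experiment, red cell lysis or mouse number as a term, 1 experiment alone, and leaving out each mouse.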

Additional observations from a re-analysis of the deposited data

Results flagged for a closer look

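Of 67 groups of 4 to 10 mice in which a member had at least 20 UMIs, or in which the share of cells labelled NK was tested, 10 held a mouse whose gap to the others passed Dixon's 95% limit; chance flags about 1 in 20 groups. In muscle cells labelled NK or T of CIA mice, S8 stood above the others for Nkg7 (4.35 UMIs per 10000) and Klrd1 (2.99), and S6 for Xcl1 (7.32). S8 also had the highest share of cells labelled NK in muscle, 17.9% of all annotated cells and 83.9% of NK and T cells, and the highest Gzma level of whole CIA spleens (2.58). S6 was highest for Xcl1 in joint cells labelled T (29.7) and in the whole joint (8.12), and S3 for Nkg7 in the whole joint (0.324). Among healthy mice, H4 had the lowest share of cells labelled NK in spleen (12.4%).

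Cells without a cell type entered the comparisons only as an alternative. In CIA joint 152 such cells held 7 UMIs of the 10 genes (0.762 per 10000), and 27 healthy ones held 0, too few cells to set a lower level. In lung the level was 2.69 in CIA (7 UMIs) against 1.09 in healthy mice (3 UMIs, all in 1 cell of H7). In the other organs the level was lower in CIA than in healthy mice, at 1.63 against 3.35 in muscle, 2.92 against 5.51 in spleen and 0 against 0.172 in skin. These differences were not tested.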

How the results depend on the processing

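Of the recomputed counts of called members, 217 were unchanged and 14 moved. The call of Gzma in whole lung was lost (0 members) with DESeq2, with the replicate block, in the second experiment alone, with all deposited cells, and without S1 or H4. Leaving out single mice gave 0 to 1 there, in lung cells labelled T and in the whole joint, and 0 elsewhere. In lung cells labelled T, 1 member (Gzma) was called with RLE factors, with plain library size, and without S2, S3 or S6. In the whole joint 1 (Xcl1) was called with plain library size and without S5, and in whole muscle 1 (Gzma) in the second experiment alone. The share of all genes called under each alternative is not given beside these counts, so they are no result about the members. The cause was not tested.

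The log2 fold changes near 0 in spleen cells labelled NK changed sign. Gzma was -0.22 in the second experiment alone and -0.20 to 0.74 when a mouse was left out, and Nkg7 was -0.0074 to 0.78. Klrd1 was 0.014 with plain library size, 0.19 without a filter, 0.058 with at least 5 cells per mouse, 0.31 in cells with no T cell receptor UMI, and -0.26 to 0.21 without single mice. Xcl1 was -0.092 with experiment as a term, -0.32 in the second experiment alone and -0.42 to 0.76 without single mice. Joint Xcl1 ranged from -1.32 (without S6) to 2.86 without single mice and was 3.36 in the second experiment alone. Without single mice Gzma in muscle NK and T cells ranged from 0.35 to 3.30 and Nkg7 from 0.56 to 2.53. The difference in the share of cells labelled NK was 2.55 percentage points (of all cells) and 3.87 (of NK and T cells) in spleen in the second experiment alone. Without single mice it ranged in muscle from -2.56 to 2.26 and from -8.31 to 8.93.

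Healthy and CIA mice with the same number were different animals, and the deviations of same-numbered libraries correlated between -0.243 and 0.298. With the replicate block by mouse number, the log2 fold change of Nkg7 in muscle NK and T cells changed sign, to -0.027. Of the counts of called members recomputed with the block, only that of the whole lung changed. The block could not be fitted for spleen NK, muscle T, joint T and spleen T cells or the whole joint, where groups shared fewer than 2 numbers. DESeq2 and experiment as a term were not run for the difference between muscle and spleen; the second experiment alone left too few mice for muscle and spleen T cells, as did higher cell minima for joint, lung and spleen T cells. Depth limits most of these values: Klrb1c had 34 UMIs in 12096 cells.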
